A study of Homo sapiens with 24 samples.

Results

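SCC-61 is a cell line from a human head and neck squamous cell carcinoma, and the arrays described here measured its RNA after 2 h with AMP-18. AMP-18 (antrum mucosal protein 18, also called gastrokine-1, encoded by GKN1) is a protein secreted by the lining of the gastric antrum. In the AMP-18 group the cells were first starved in medium with 1% fetal bovine serum and then kept for 2 h with 2 µg/ml of AMP-18. In the untreated group the cells were starved in the same way and received no AMP-18. The labels give no vehicle for the untreated cells. The study's methods describe the human protein as recombinant and made with a tag in E. coli. Each group held 3 arrays, so 6 of the 24 arrays of the series belong to this comparison. The others are SCC-61 cells at 24 h and HaCaT cells, an immortalized human keratinocyte line, at 2 h and 24 h, each with and without AMP-18 under the same starvation, in 8 groups in all. Whether the triplicates were separate cultures is not stated, so the p-values measure the spread between these samples, which may be technical.

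Total RNA was labelled as biotin cRNA and hybridized to Illumina bead arrays, on which each gene is read by 1 or a few probes. The values are log2 intensities as deposited. Of 47323 probes, 18801 were tested, namely those detected (p under 0.05) on every AMP-18 array, on every untreated array, or on both sets. Of these, 17010 were detected on all 6 arrays, 856 were kept through the AMP-18 arrays alone and 935 through the untreated arrays alone. They covered 11047 genes, each represented by its brightest tested probe. A fold change is the log2 value with AMP-18 minus that without, so a negative value means lower with AMP-18, and the adjusted p comes from limma with the Benjamini-Hochberg correction over all tested probes. The values appear to have been brought to a common distribution on every array, so a rise or a fall is relative to the other probes of the same array.

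The 6 arrays detected 20223 to 21338 probes each (42.7% to 45.1%) and correlated with each other at 0.9908 to 0.9969 over the tested probes. Markers of epithelium were detected, and so were some of other cell types. All 13 of 16 epithelial and keratinocyte markers with a named probe were detected on all 6 arrays, among them KRT5, KRT14, CDH1 and CDH3, and their summed linear level was 23790 to 23830 with AMP-18 and 19250 to 20440 without. Of 9 fibroblast markers, 5 (COL1A1, COL3A1, DCN, FAP and LUM) were detected on all 6 arrays and 3 (PDGFRA, PDGFRB and THY1) on none, and the summed level was 286.1 to 304.9 with AMP-18 and 248.1 to 285 without. Of 9 leukocyte markers, CD14 and CD68 were detected on all 6 arrays and PTPRC, CD3D, CD3E and CD2 on none, and the sum was 745.5 to 844.6 with AMP-18 and 755.1 to 771.1 without. For 7 endothelial markers, of which CDH5 was detected on all 6 arrays and 5 on none, the sums were 107.2 to 125.9 with AMP-18 and 114.7 to 119.4 without, and for 4 melanocyte markers, of which MITF and PMEL were detected on all 6 arrays and MLANA and TYR on none, they were 82.08 to 89.47 with AMP-18 and 92.44 to 97.84 without. The part of these shifts in the results was not tested. AMP-18 replicate 1 stood apart from the rest. On the first principal component, which held 41.4% of the variance, it lay at 23.63, the other AMP-18 arrays at 6.85 and 3.6, and the untreated arrays between -11.75 and -11.04. Results are therefore also given without it, and without each of the other 5 arrays in turn.

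Many genes named here belong to the secretory pathway. Proteins that will be secreted, held in the cell membrane or sent to lysosomes are made at the endoplasmic reticulum (ER), folded there by chaperones, given their sugars in the ER and Golgi, and then sorted. In stratified epithelia such as the oral mucosa, this route supplies the adhesion proteins that hold cells to each other and to the basement membrane, the proteases that act on them, and the antimicrobial proteins of the surface. Ribosomes, mitochondria and the proteasome are built mostly from proteins made in the cytosol, which do not pass through this route.

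At 2 h, 1964 of the 18801 probes passed the threshold of 0.05 (10.4%), 1117 of them higher and 847 lower with AMP-18. Counted by gene, 800 rose (7.24% of 11047) and 425 fell (3.85%). The changes were small. The median absolute log2 fold change of the probes that passed was 0.29, 42 probes changed by more than 1.5-fold and 0 by more than 2-fold. The values of the 3 AMP-18 and the 3 untreated arrays did not overlap for 1900 of the 1964 probes, against 5705 (30.3%) of all tested probes. Without AMP-18 replicate 1, 1589 probes passed, 855 higher and 734 lower, 1277 of the 1964 among them, and 0 of the 1964 reversed. Leaving out any 1 of the 6 arrays left 1165 to 1764 probes, and the count fell by over 1.5 times without untreated replicate 1 (1165), 2 (1222) or 3 (1211). Of the 1225 genes called, 433 passed without each of the 6 arrays in turn, 340 that rose and 93 that fell, and 42 passed in none of these fits. Where a gene had another tested probe, the probes mostly moved together: 452 of 546 other probes of 406 genes had the sign of the called one, 122 were called the same way and 0 the opposite way. A further 4023 tested probes had no single gene symbol, of which 165 rose and 302 fell.

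**Figure D1:**
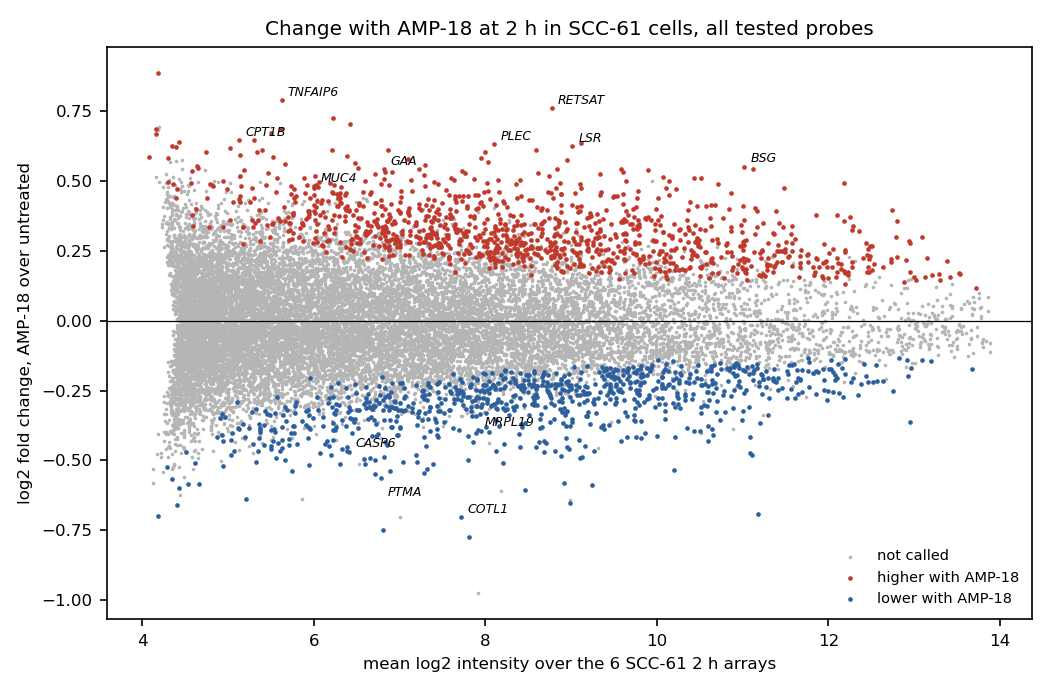
Each point is 1 of the 18801 tested probes, at its mean log2 intensity over the 6 arrays (x axis) and its log2 fold change, AMP-18 over untreated SCC-61 cells at 2 h (y axis), coloured where it passed the adjusted p of 0.05. The 1117 probes that rose and the 847 that fell lie above and below 0.

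The gene that rose most was TNFAIP6, a secreted hyaluronan-binding protein that inflammatory cytokines induce. It read 6.01, 6.09 and 5.96 on the AMP-18 arrays, against 5.31, 5.12 and 5.26 on the untreated arrays (log2 fold change 0.79, SE 0.16, adjusted p = 0.00177). RETSAT, a retinol saturase of the ER, read 9.65, 8.81 and 9.01 with AMP-18, against 8.42, 8.38 and 8.39 without (0.76, SE 0.14, adjusted p = 0.000557). Its AMP-18 arrays were spread widely, with replicate 1 highest, and all lay above the untreated ones. CPT1B, a carnitine palmitoyltransferase that lets fatty acids into mitochondria, read 5.69, 5.40 and 5.28 with AMP-18 and 4.74, 4.83 and 4.86 without (0.65, SE 0.13, adjusted p = 0.00211). PLEC, the large linker protein that ties keratin filaments to hemidesmosomes, read 8.50, 8.38 and 8.39 with AMP-18 and 7.81, 7.77 and 7.77 without (0.63, SE 0.10, adjusted p = 0.000218). The lipoprotein receptor LSR, which also marks the corners where 3 epithelial cells meet, rose by 0.63 (SE 0.07, adjusted p = 2.76e-06), and its other tested probe differed by 0.58. These 5 genes passed without any 1 of the 6 arrays.

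Next came CHPF, which extends chondroitin sulfate chains in the Golgi, at 9.0, 8.86 and 8.84 with AMP-18 and 8.31, 8.34 and 8.22 without (0.61, SE 0.08, adjusted p = 3.68e-05). GRINA, a membrane protein of the ER and Golgi, rose by 0.61 (adjusted p = 4.23e-05), but its other tested probe differed by 0.09. GLB1L2, a relative of lysosomal beta-galactosidase, rose by 0.58 (adjusted p = 0.000271), and TMEM184B, a multi-pass membrane protein, by 0.58 (adjusted p = 7.21e-05). LOC100190986, a transcript with no established role, rose by 0.61 (adjusted p = 8.19e-05). The other 5 of the 15 that rose most depended on single arrays. PLEKHA8 (adjusted p = 0.032), SNORA52 (0.0258) and the plexin PLXNB3 (0.0385) were not detected on any untreated array, so only bounds are given: PLEKHA8 was at least 1.10-fold higher with AMP-18, SNORA52 at least 1.31-fold and PLXNB3 at least 1.27-fold. With 1 array left out, the adjusted p was as high as 0.226 for PLEKHA8, 0.144 for SNORA52 and 0.158 for PLXNB3. Each lost its call without AMP-18 replicate 1, AMP-18 replicate 2 or untreated replicate 2, PLEKHA8 and PLXNB3 also without untreated replicate 3, and PLXNB3 also without untreated replicate 1. PKD1, a polycystin of the cell membrane, rose by 0.59 (adjusted p = 0.0197; up to 0.0946 without AMP-18 replicate 1 or 2 or untreated replicate 1 or 3). GGTLC2 rose by 0.60 (adjusted p = 0.0069; 0.0734 without untreated replicate 3), and near-identical copies of it could share its probe's signal.

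Among the genes that fell most, PTMA, the acidic nuclear protein prothymosin alpha, read 6.75, 6.38 and 6.39 on the AMP-18 arrays and 7.14, 6.97 and 7.09 on the untreated arrays (log2 fold change -0.56, SE 0.12, adjusted p = 0.00314). NAA50, a subunit of an N-terminal acetyltransferase, read 6.80, 6.68 and 6.39 with AMP-18 and 7.01, 7.29 and 7.17 without (-0.54, SE 0.11, adjusted p = 0.00165). For both genes every AMP-18 array lay below every untreated one. ECHDC1, a cytosolic enzyme that clears a side product of fatty acid synthesis, fell by 0.50 on the log2 scale (adjusted p = 0.00159), while its other tested probe differed by 0.28 in the opposite direction. DTL, which brings licensing factors to the ubiquitin ligase CRL4 during DNA replication, read 6.47, 6.26 and 6.48 with AMP-18 and 6.93, 6.76 and 7.0 without (-0.49, SE 0.10, adjusted p = 0.00172). CASP6, an effector caspase, read 6.11, 6.19 and 6.23 with AMP-18 and 6.74, 6.61 and 6.59 without (-0.47, SE 0.10, adjusted p = 0.00196), and its other probes differed by -0.14 and -0.09. RPL23AP87, a ribosomal protein pseudogene whose probe may also read its parent gene, fell by 0.49 (adjusted p = 0.000229). These 6 passed without any 1 of the 6 arrays.

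The remaining genes of the 15 that fell most rested on fewer arrays. NUTM2A-AS1 was not detected on any AMP-18 array and was at least 1.31-fold lower than without AMP-18 (adjusted p = 0.0115; 0.0736 without untreated replicate 1). RPL21P28, another ribosomal pseudogene with near-identical copies, read 8.46, 9.31 and 9.09 with AMP-18 and 9.59, 9.61 and 9.41 without (-0.59, adjusted p = 0.0259). It reached 0.209 with an array left out and lost its call without AMP-18 replicate 1 or untreated replicate 1 or 2. The zinc finger gene ZNF57 fell by 0.59 (adjusted p = 0.00847; 0.081 without AMP-18 replicate 1), and was detected on 2 of 3 AMP-18 arrays. SFPQ, a splicing and paraspeckle protein, read 7.0, 6.76 and 6.59 with AMP-18 and 7.13, 7.18 and 7.56 without (-0.51, adjusted p = 0.0159), and reached 0.128 without untreated replicate 3 or AMP-18 replicate 3. SRPK2, a kinase of splicing factors, fell by 0.50 (adjusted p = 0.00706; 0.0518 without untreated replicate 3), and UBE2J2, a ubiquitin-conjugating enzyme of the ER membrane, by 0.47 (0.00879; 0.052 without untreated replicate 1), while its other probe differed by 0.30 in the opposite direction. PHOSPHO2 fell by 0.45 (adjusted p = 0.0169; up to 0.14 without AMP-18 replicate 1 or untreated replicate 3). C11orf58 and the leukocyte-specific protein gene LSP1 had log2 fold changes of -0.51 and -0.51 (adjusted p = 0.0363 and 0.0359), and each lost its call in 5 of the 6 fits with an array left out. COTL1, an actin-binding protein, had a log2 fold change of -0.70 (SE 0.15, adjusted p = 0.00232). It is not among the 15, since its groups overlapped: AMP-18 replicate 1 read 7.87, as did untreated replicate 3. Its change passed under all 18 alternatives run (adjusted p up to 0.0367).

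**Figure D2:**
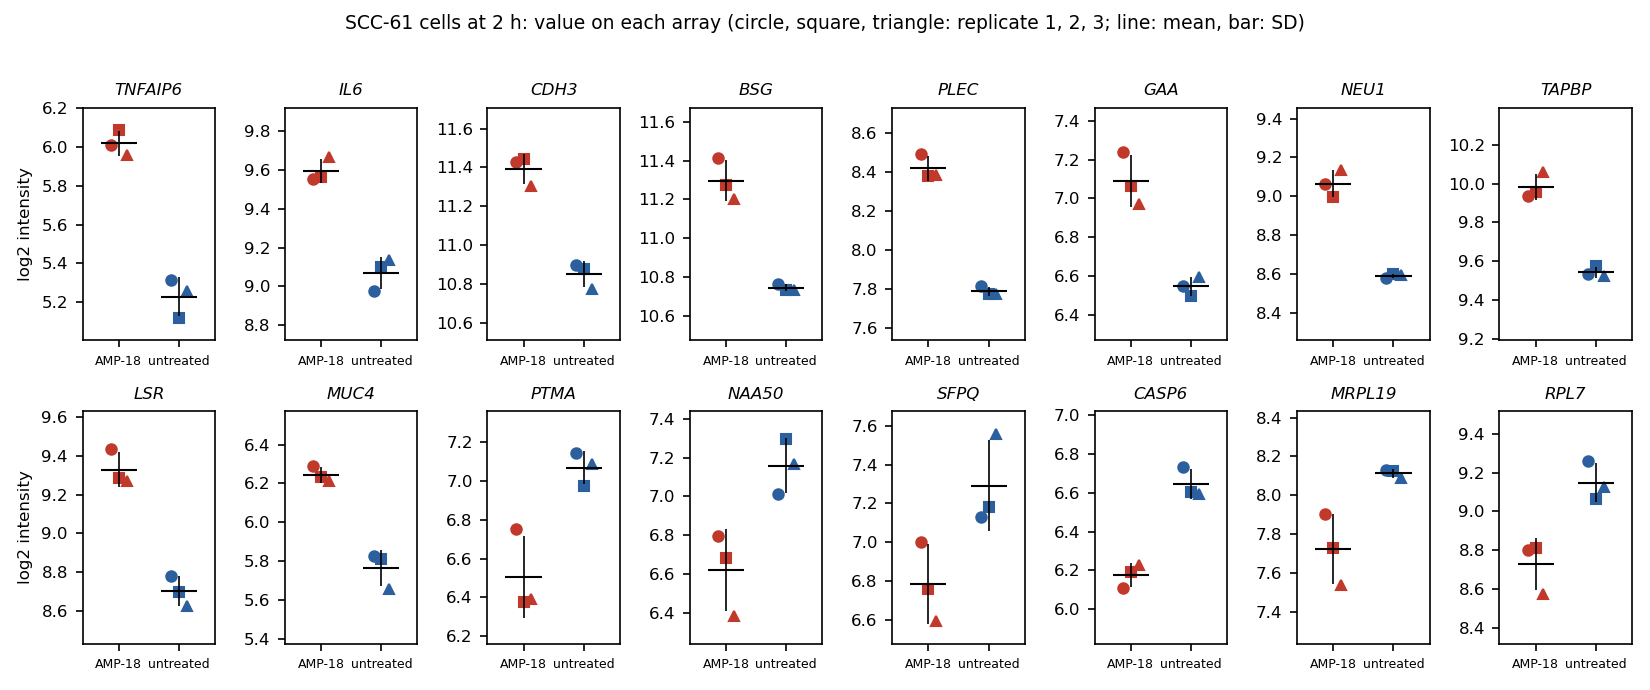
Log2 intensity on each of the 3 AMP-18 (left) and 3 untreated (right) SCC-61 arrays at 2 h for 16 genes, 10 that rose and 6 that fell, with the group means as lines and the SD as bars. Each panel has its own y axis, and in all 16 the AMP-18 and untreated points do not overlap.

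Gene lists were then pooled, roughly by where most of their proteins go. The lists themselves follow function, so some members go elsewhere, such as PLEC, the keratin linker, among the hemidesmosome genes. For 3 groups, 17, 4 and 11 gene lists were put together after their values had been seen, so their counts are descriptions with no test. Of 576 measured genes of lysosomal, secreted and cell-surface proteins, 178 rose (30.9%) and 2 fell, the integrin ITGAE and the cytokine MIF, against 7.24% and 3.85% of all genes. The log2 fold change was above 0 for 86.3% of them, with a median of 0.18, and the medians of AMP-18 replicates 1, 2 and 3 over the untreated mean were 0.20, 0.17 and 0.18. This first group did not hold the cornified envelope and epidermal protease list, of which 4 of 39 genes rose and DMKN fell. Nor did it hold the TGF-beta and BMP list, of which 3 of 23 genes rose and 2 fell, ID2 and ID3. Of 182 genes of the ER and Golgi machinery, 46 rose and 2 fell, SRP9 and SEC61B, with a median of 0.12. Of 637 genes of ribosomes, mitochondria, the proteasome and RNA processing, 4 rose, COX19, EIF4G1, UBA1 and SRSF5, and 87 fell (13.7%), with a median of -0.10, and 21.4% were above 0. This group of 637 also held lists of translation factors, ubiquitin-conjugating enzymes, cytosolic chaperones, and RNA polymerase II and general transcription. It did not hold small nucleolar and small nuclear RNAs, of which 7 of 137 rose and 0 fell. Also outside it were aminoacyl-tRNA synthetases (1 of 16 rose, 0 fell) and fatty acid oxidation (2 of 25 rose, 3 fell). The counts of both groups therefore depend in part on which lists were pooled. The 9655 other genes divided into 575 that rose and 334 that fell, with a median of -0.00. Without AMP-18 replicate 1, the counts were 134 and 3, 36 and 3, and 4 and 71 in the 3 groups. With any 1 of the 6 arrays left out, 118 to 157 of the first group rose and 27 to 37 of the second. Their counts were lowest without untreated replicate 1 (118) and untreated replicate 3 (27). The second also came to 28 without AMP-18 replicate 2. The number that fell in the third group was 41 to 85, with 41, 45, 49 and 57 without untreated replicate 3, 1 and 2 and AMP-18 replicate 2. Of the 13 epithelial markers, most of them adhesion proteins or keratins, 7 rose and 0 fell.

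**Figure D3:**
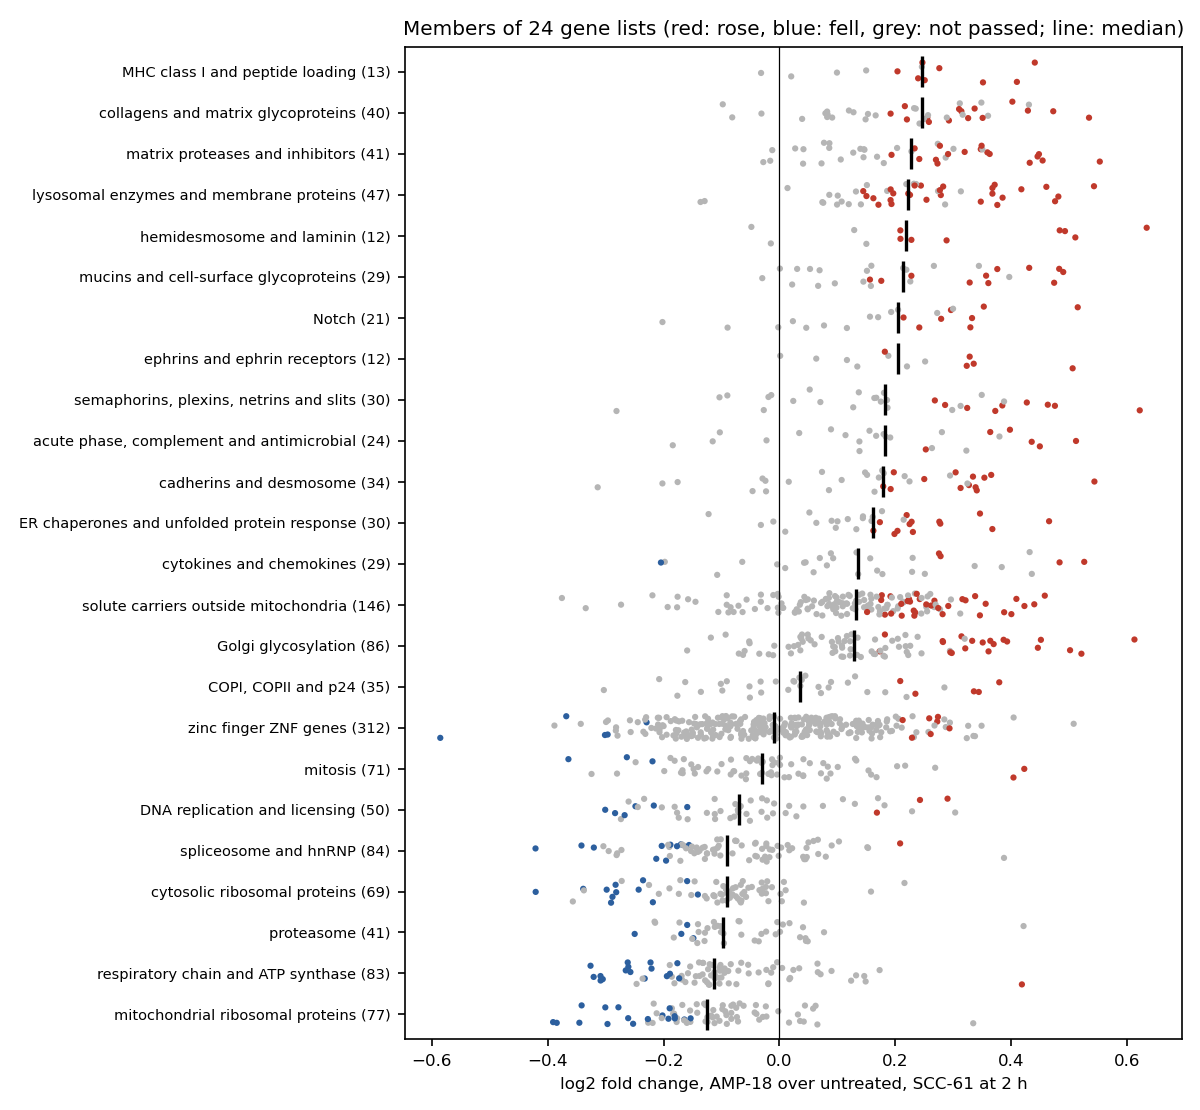
Log2 fold change, AMP-18 over untreated SCC-61 cells at 2 h (x axis), of the measured members of 24 gene lists (rows), each point 1 gene, coloured where it passed the adjusted p of 0.05, with each list's median as a line. Lists of lysosomal, secreted and surface proteins lie mostly right of 0, and those of ribosomes, mitochondria and the spliceosome mostly left of it.

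Lysosomes are the compartment in which acid hydrolases break down proteins, sugars and lipids. Of 47 lysosomal genes measured, 27 rose and 0 fell, with a median log2 fold change of 0.22, and 45 were above 0. GAA, the acid alpha-glucosidase that degrades glycogen, read 7.24, 7.07 and 6.97 on the AMP-18 arrays, against 6.55, 6.50 and 6.60 on the untreated arrays (log2 fold change 0.54, SE 0.12, adjusted p = 0.00322). NEU1, the sialidase that removes sialic acid, read 9.06, 9.0 and 9.14 with AMP-18 and 8.58, 8.60 and 8.59 without (0.48, SE 0.07, adjusted p = 0.000136). In both, the lowest AMP-18 array lay above the highest untreated one by more than the spread within either group. SGSH, a heparan sulfate sulfatase, rose by 0.46 (SE 0.08, adjusted p = 0.000354), CLN3, a lysosomal membrane protein, by 0.39 (SE 0.09, adjusted p = 0.00426), and GRN, whose product progranulin is cut into granulins in lysosomes, by 0.37 (SE 0.07, adjusted p = 0.00175).

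CTSA, the protective protein that holds the lysosomal sialidase and beta-galactosidase in a complex, read 9.58, 9.36 and 9.25 with AMP-18 and 9.03, 9.08 and 8.97 without (0.37, SE 0.08, adjusted p = 0.00291). The aspartic protease CTSD read 9.80, 9.94 and 9.86 with AMP-18 and 9.59, 9.55 and 9.41 without (0.35, SE 0.07, adjusted p = 0.0013). ACP2, the lysosomal acid phosphatase, rose by 0.37 (adjusted p = 0.000616), and LAMP1, an abundant glycoprotein of the lysosomal membrane, by 0.28 (SE 0.04, adjusted p = 0.000173). MCOLN1, a lysosomal calcium channel, read 7.23, 7.15 and 6.95 with AMP-18 and 6.62, 6.72 and 6.72 without (0.42, SE 0.11, adjusted p = 0.0105), and did not pass without AMP-18 replicate 1 or untreated replicate 1 (adjusted p up to 0.0528). Of the V-ATPase, the pump that acidifies lysosomes, 4 of 16 genes rose and 0 fell, led by its accessory subunit ATP6AP1 (0.31, adjusted p = 0.000952). FUCA2 went against the list, at 8.81, 9.62 and 9.77 with AMP-18 and 9.55, 9.53 and 9.50 without (-0.13, adjusted p = 0.727), where only AMP-18 replicate 1 was low. The count of lysosomal genes that rose was 15 to 24 when 1 array was left out, and it was 15 without untreated replicate 1 and 18 without AMP-18 replicate 2.

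**Figure D4:**
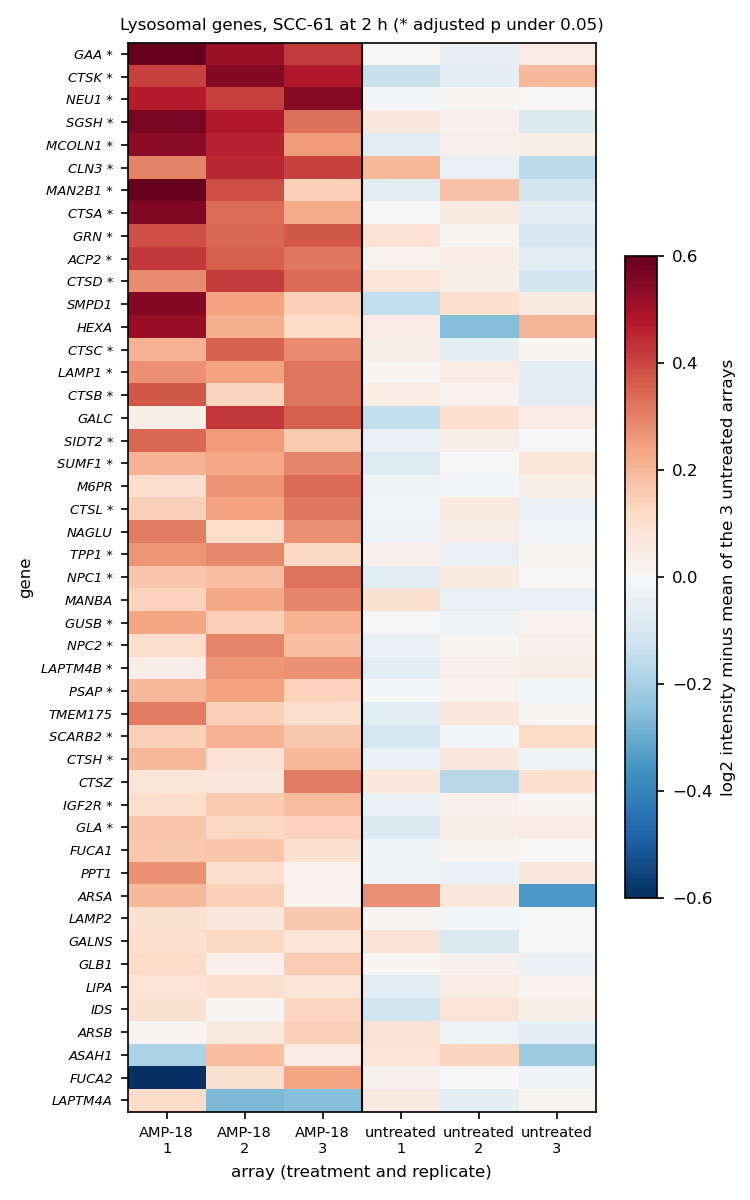
Log2 intensity minus the mean of the 3 untreated arrays (colour scale) for the 47 measured lysosomal genes (rows, ordered by fold change; an asterisk marks an adjusted p under 0.05) on the 3 AMP-18 and 3 untreated SCC-61 arrays at 2 h. The AMP-18 columns are mostly above the untreated mean in all 3 replicates, and FUCA2 in replicate 1 lies beyond the scale.

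Many lysosomal genes carry in their promoters an E-box of the kind bound by the transcription factor TFEB, and 5 such promoters of genes that rose are shown with that motif, the letters TCACGTG on either strand, in capitals. The sequences are from RefSeq in GRCh38.p14, 250 bases before to 50 after the start site, in the direction of the gene: GAA at chr17:80101331-80101630 (plus strand), NEU1 at chr6:31862772-31863071 (minus strand), MCOLN1 at chr19:7522374-7522673 (plus strand), CTSD at chr11:1763878-1764177 (minus strand) and CTSA at chr20:45891085-45891384 (plus strand).
GAA: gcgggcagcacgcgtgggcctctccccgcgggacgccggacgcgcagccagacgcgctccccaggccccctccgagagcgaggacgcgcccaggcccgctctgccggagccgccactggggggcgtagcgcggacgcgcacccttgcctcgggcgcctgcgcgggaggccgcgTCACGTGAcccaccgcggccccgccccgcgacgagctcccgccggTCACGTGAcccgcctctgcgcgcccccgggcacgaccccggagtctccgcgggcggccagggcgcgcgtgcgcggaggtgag
NEU1: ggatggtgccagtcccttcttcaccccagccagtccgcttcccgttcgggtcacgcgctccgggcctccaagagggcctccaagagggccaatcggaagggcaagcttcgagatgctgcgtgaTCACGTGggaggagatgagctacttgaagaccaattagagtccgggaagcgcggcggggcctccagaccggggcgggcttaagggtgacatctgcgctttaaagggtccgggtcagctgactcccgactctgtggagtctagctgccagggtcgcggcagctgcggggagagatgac
MCOLN1: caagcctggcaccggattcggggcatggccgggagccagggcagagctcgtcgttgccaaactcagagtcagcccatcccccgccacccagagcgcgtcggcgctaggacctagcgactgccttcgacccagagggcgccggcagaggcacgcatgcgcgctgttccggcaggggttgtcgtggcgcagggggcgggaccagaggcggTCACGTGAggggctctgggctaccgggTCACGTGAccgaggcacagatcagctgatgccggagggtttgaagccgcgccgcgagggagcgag
CTSD: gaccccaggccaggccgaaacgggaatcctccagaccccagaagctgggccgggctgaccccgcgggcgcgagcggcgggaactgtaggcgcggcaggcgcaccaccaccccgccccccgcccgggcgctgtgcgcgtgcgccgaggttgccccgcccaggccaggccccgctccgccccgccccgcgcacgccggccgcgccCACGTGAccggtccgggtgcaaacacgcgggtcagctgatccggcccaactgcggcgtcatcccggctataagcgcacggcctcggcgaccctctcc
CTSA: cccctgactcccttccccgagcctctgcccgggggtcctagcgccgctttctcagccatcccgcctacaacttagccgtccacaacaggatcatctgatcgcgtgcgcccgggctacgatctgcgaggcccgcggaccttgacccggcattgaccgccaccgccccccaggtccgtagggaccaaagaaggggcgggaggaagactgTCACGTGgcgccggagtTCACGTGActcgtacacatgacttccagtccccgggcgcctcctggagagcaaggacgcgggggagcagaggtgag
GAA, MCOLN1 and CTSA held 2 matches each, and the matches nearest the upstream end began 77, 42 and 43 bases before the start site, with those of NEU1 and CTSD at 127 and 47. The motif stood in 27.8% of the 36 lysosomal promoters with a sequence, against 6.07% of the promoters of the tested genes and 3.82% of all 27305 promoters of the table. Of the 10 lysosomal genes with it, 9 rose, with a median log2 fold change of 0.36, and of the 26 without it 13 rose, with a median of 0.19. Over all genes that rose, 5.79% of promoters held it, and over those that fell 5.44%. The matches describe letters in this window, and binding was not measured.

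Further up the route, 13 of 30 ER chaperone and unfolded protein response genes rose and 0 fell, with a median of 0.16. HYOU1, an ER member of the HSP70 family, read 8.22, 8.32 and 8.25 on the AMP-18 arrays, against 7.86, 7.74 and 7.80 on the untreated arrays (log2 fold change 0.47, SE 0.09, adjusted p = 0.00134), and its other probe differed by 0.45. SDF2L1, a cochaperone, rose by 0.37 (adjusted p = 0.00343), EDEM1, which marks misfolded glycoproteins for disposal, by 0.35 (adjusted p = 0.000694), and the protein disulfide isomerase P4HB by 0.22 (adjusted p = 0.00202). HSPA5, the main ER chaperone BiP, read 9.60, 9.53 and 9.60 with AMP-18 and 9.25, 9.38 and 9.44 without (0.22, SE 0.06, adjusted p = 0.0191), but did not pass without AMP-18 replicate 1 or 3 or untreated replicate 1 (adjusted p up to 0.135). Other genes that ER stress is known to induce did not pass, with log2 fold changes of 0.10 for XBP1 (adjusted p = 0.201), -0.12 for DDIT3 (0.419) and -0.01 for ATF4 (0.927). The list's count was 6 to 9 with an array left out, lowest without untreated replicate 1 (6) and 3 (7), and 8 without each AMP-18 array.

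The promoter of HSPA5 (GRCh38.p14, chr9:125241294-125241593, minus strand) is shown for its ER stress response element, in capitals: the letters CCAAT, any 9 bases and CCACG.
HSPA5: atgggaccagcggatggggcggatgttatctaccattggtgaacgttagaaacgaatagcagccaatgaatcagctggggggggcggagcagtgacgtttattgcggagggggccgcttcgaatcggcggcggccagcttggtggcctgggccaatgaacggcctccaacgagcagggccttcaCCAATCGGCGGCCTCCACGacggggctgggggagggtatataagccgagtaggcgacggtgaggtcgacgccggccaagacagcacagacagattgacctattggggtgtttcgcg
The element began 66 bases before the start site. It stood in 23.3% of 30 promoters of the ER chaperone list, 0.157% of those of the tested genes and 0.0806% of all promoters. Of the 7 genes of the list with it, 3 rose, with a median log2 fold change of 0.13, and of the 23 without it 10 rose, with a median of 0.16.

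The machinery that threads proteins into the ER was divided. Of 31 genes of the translocon, signal peptidase and oligosaccharyltransferase, 8 rose and 2 fell. SEC61A1, the channel subunit, rose by 0.34 (adjusted p = 0.000641), SSR4 of the translocon-associated complex by 0.27 (adjusted p = 0.000648) and DDOST of the oligosaccharyltransferase by 0.24 (adjusted p = 0.00111). The small subunit SEC61B read 11.18, 11.14 and 11.09 with AMP-18 and 11.29, 11.40 and 11.34 without (-0.21, SE 0.04, adjusted p = 0.00324), and SRP9 of the signal recognition particle also fell, by 0.21 (adjusted p = 0.0104; 0.0733 without AMP-18 replicate 2). Of 86 Golgi glycosylation genes, 20 rose and 0 fell, with a median of 0.13. Besides CHPF they included MGAT4B, which branches N-glycans (0.52, adjusted p = 0.000121, with its other probe at -0.00), FAM20C, the kinase of secreted proteins (0.50, adjusted p = 3.68e-05), CHST3, a chondroitin sulfotransferase (0.45, adjusted p = 0.00213), and MGAT1, which starts complex N-glycans (0.36, adjusted p = 0.000694). Of 35 coat and cargo receptor genes of the vesicles between ER and Golgi, 5 rose and 0 fell: ERGIC3 (0.38), SURF4 (0.34), TMED9 (0.34), TMED3 (0.23) and TMED2 (0.21; adjusted p up to 0.121 without AMP-18 replicate 2 or untreated replicate 2 or 3). The Golgi count was 11 to 17 with an array left out, lowest at 11 without AMP-18 replicate 2 or untreated replicate 3, 12 without AMP-18 replicate 1 and 13 without untreated replicate 1. The translocon count came to 5 without AMP-18 replicate 2 or untreated replicate 3.

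Adhesion genes hold keratinocytes to each other and to the matrix beneath. The list of hemidesmosome and laminin genes, the anchors to the basement membrane, had 8 of 12 rise and 0 fall, with a median of 0.22. Besides PLEC, the integrin beta 4 gene ITGB4 read 10.75, 10.59 and 10.71 on the AMP-18 arrays, against 10.23, 10.14 and 10.16 on the untreated arrays (log2 fold change 0.51, SE 0.07, adjusted p = 6.53e-05), and its other probe differed by 0.64. LAMB3, a chain of the main epidermal laminin, rose without overlap by 0.49 (SE 0.07, adjusted p = 6.37e-05), although its other probes differed by -0.01 and -0.02. Of 34 cadherin and desmosome genes, which join cell to cell, 13 rose and 0 fell, with a median of 0.18. CDH3, the P-cadherin of basal keratinocytes, had the lowest adjusted p named here: it read 11.43, 11.44 and 11.31 with AMP-18 and 10.90, 10.88 and 10.77 without (0.54, SE 0.05, adjusted p = 9.98e-08). The desmosomal genes DSC3 (0.34), DSP (0.34), PKP1 (0.33) and DSG3 (0.31) rose with it, each without overlap between the groups. The cadherin count was 7 to 13 with an array left out, and it was 7 without AMP-18 replicate 1. Tight junction and polarity genes had 5 of 28 rise and 0 fall, with CLDN7 at 0.45 (adjusted p = 0.000274) after LSR, and only 2 and 3 rose without untreated replicate 1 and 2. Of 15 integrins, 4 rose, and ITGAE alone fell (by 0.23, adjusted p = 0.034), a call lost in 5 of the 6 fits with an array left out.

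Matrix genes and proteases came next. Of 40 collagen and matrix glycoprotein genes, 15 rose and 0 fell, with a median of 0.25. AGRN, the heparan sulfate proteoglycan agrin, read 10.46, 10.45 and 10.46 on the AMP-18 arrays and 10.01, 9.92 and 10.03 on the untreated arrays (log2 fold change 0.47, SE 0.07, adjusted p = 8.27e-05), with its other probe at -0.02. DDR1, a collagen receptor kinase, rose by 0.53 (adjusted p = 0.000137), LTBP3, which holds latent TGF-beta in the matrix, by 0.43 (adjusted p = 0.0033), and FBLN1, a matrix glycoprotein, by 0.33 (adjusted p = 5.13e-05). Among 41 matrix proteases and their inhibitors, 17 rose and 0 fell, with a median of 0.23. BSG (basigin), the surface protein that induces matrix metalloproteinases, read 11.41, 11.27 and 11.20 with AMP-18 and 10.77, 10.74 and 10.73 without (0.55, SE 0.07, adjusted p = 3.68e-05). Both plasminogen activators rose, PLAT by 0.45 (adjusted p = 0.000575) and PLAU by 0.36 (adjusted p = 0.00066). So did the membrane protease ST14, matriptase, by 0.45 (adjusted p = 0.000145), and its inhibitors SPINT2 (0.36, adjusted p = 1.48e-05) and SPINT1 (0.35, adjusted p = 0.00319). With an array left out, 11 to 16 of the matrix list rose and 11 to 15 of the protease list, which had 11 without untreated replicate 3.

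On the cell surface, 11 of 29 mucin and surface glycoprotein genes rose and 0 fell, with a median of 0.21. NECTIN2, an adherens junction protein, read 8.79, 8.53 and 8.48 on the AMP-18 arrays, against 8.07, 8.20 and 8.07 on the untreated arrays (log2 fold change 0.49, SE 0.09, adjusted p = 0.001). The membrane mucin MUC1 read 10.12, 10.12 and 10.10 with AMP-18 and 9.76, 9.73 and 9.76 without (0.36, SE 0.06, adjusted p = 0.00031), a gap several times wider than the spread in either group. MUC4, another membrane mucin, read 6.29, 6.23 and 6.21 with AMP-18 and 5.82, 5.81 and 5.65 without (0.48, SE 0.16, adjusted p = 0.0463), and lost its call in all 6 fits with an array left out (adjusted p up to 0.159). The list's count was 6 without untreated replicate 1 or 2.

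Receptors and ligands that act between neighbouring cells followed. In the ephrin system, 5 of 12 genes rose and 0 fell, led by the ligand EFNB1 at 8.44, 8.38 and 8.39 with AMP-18 and 7.92, 7.98 and 7.79 without (0.51, SE 0.08, adjusted p = 0.000271), with the receptor EPHA1 at 0.32 (adjusted p = 0.00256), but 2 rose without AMP-18 replicate 1 and 3 without untreated replicate 1 or 2. Of 30 semaphorin, plexin, netrin and slit genes, 9 rose and 0 fell, among them the semaphorin receptors PLXNB2 (0.48, adjusted p = 3.68e-05, with its other probe at -0.10), PLXNA2 (0.46) and PLXNB1 (0.43) and the ligand SEMA4B (0.38). That count was 5 without AMP-18 replicate 1 or any 1 of the untreated arrays. In the Notch pathway, 8 of 21 genes rose and 0 fell: APH1A, a subunit of the gamma-secretase that cuts Notch, read 10.23, 10.32 and 10.42 with AMP-18 and 9.81, 9.81 and 9.81 without (0.51, SE 0.06, adjusted p = 2.76e-06), the receptor NOTCH1 rose by 0.35 (adjusted p = 0.00281) and the ligand DLL1 by 0.30 (adjusted p = 0.00312), and 5 rose without untreated replicate 1. Of 32 WNT and hedgehog genes, 6 rose, with the receptors ROR1 (0.50, adjusted p = 0.00768) and FZD7 (0.38, adjusted p = 0.00767) first, and 3 without AMP-18 replicate 1. Of 19 receptor tyrosine kinases and EGF ligands, 5 rose, DDR1, MST1R (0.32), TYRO3 (0.31; adjusted p up to 0.114 without AMP-18 replicate 1 or untreated replicate 2), FGFR3 (0.28) and ERBB2 (0.24), while EGFR read 10.28, 10.17 and 10.24 with AMP-18 and 10.11, 10.03 and 10.11 without and did not pass (0.15, adjusted p = 0.0766).

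Membrane transporters formed a long list. Of 146 solute carriers outside mitochondria, 33 rose and 0 fell, with a median of 0.13. They included SLC9A8, a sodium-proton exchanger (0.46, adjusted p = 0.00185), the creatine transporter SLC6A8 (0.42, adjusted p = 0.00654) and SLC3A2, the heavy chain of amino acid transporters (0.32, SE 0.05, adjusted p = 9.32e-05). The count was 15 to 27 with an array left out, at 15, 16, 17, 19 and 20 without untreated replicate 3, AMP-18 replicate 1, untreated replicate 1, AMP-18 replicate 2 and untreated replicate 2. Of 39 ABC transporters and P-type ATPases, 6 rose, among them ABCC5, an exporter of organic anions (0.41, adjusted p = 0.000183), and ATP2A2, the calcium pump of the ER (0.35, adjusted p = 8.27e-05).

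Genes of inflammation and defence were less uniform, and for their counts, 7.24% of all genes rose and 3.85% fell. Of 29 cytokines and chemokines, 4 rose and 1 fell. IL6, the acute phase cytokine, read 9.56, 9.56 and 9.67 on the AMP-18 arrays, against 8.97, 9.10 and 9.13 on the untreated arrays (log2 fold change 0.53, SE 0.09, adjusted p = 0.00049). CCL2, a chemokine that draws monocytes, read 5.33, 5.52 and 5.33 with AMP-18 and 5.05, 4.82 and 4.85 without (0.48, SE 0.09, adjusted p = 0.0011), and CXCL16 rose by 0.28 (adjusted p = 0.000389). The neutrophil chemokine CXCL8 differed by 0.28 (adjusted p = 0.0296) and lost its call in 5 of the 6 fits with an array left out (up to 0.124). MIF, an abundant cytokine that is not made through the ER, fell by 0.20 (adjusted p = 0.0117; 0.099 without untreated replicate 1). IL1B and CXCL1 did not pass (0.13, adjusted p = 0.328, and 0.23, adjusted p = 0.468).

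The promoter of IL6 (GRCh38.p14, chr7:22726950-22727249, plus strand) is shown because its NF-kB motif, in capitals, is a textbook site of its induction. The letters searched were GGGA, any 2 bases and TTCC on either strand.
IL6: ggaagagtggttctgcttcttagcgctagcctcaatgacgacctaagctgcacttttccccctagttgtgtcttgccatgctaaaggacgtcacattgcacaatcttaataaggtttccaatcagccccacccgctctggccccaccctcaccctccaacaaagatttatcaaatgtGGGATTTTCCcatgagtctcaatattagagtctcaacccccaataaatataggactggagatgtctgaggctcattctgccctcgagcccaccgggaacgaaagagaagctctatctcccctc
The motif began 73 bases before the start site. It stood in 21.7% of 23 cytokine and chemokine promoters, 26.3% of 19 promoters of NF-kB feedback regulators, 1.72% of those of genes that rose, 1.59% of those of the tested genes and 1.63% of all promoters. Of the 23 genes listed as NF-kB feedback regulators, 3 rose and 0 fell, against 7.24% and 3.85% of all genes. The first, TNFAIP6, is the secreted hyaluronan-binding protein described above, not itself a regulator of NF-kB. The others were ZC3H12A, an RNase that degrades cytokine mRNAs (7.27, 6.94 and 7.09 with AMP-18 and 6.51, 6.56 and 6.62 without, log2 fold change 0.53, SE 0.09, adjusted p = 0.000318), and IER3 (0.25, adjusted p = 0.0219). IER3 reached 0.15 with an array left out and did not pass without AMP-18 replicate 1 or 2 or untreated replicate 2. NFKBIA, the inhibitor that NF-kB induces first, read 10.55, 10.61 and 10.61 with AMP-18 and 10.56, 10.49 and 10.61 without (0.03, adjusted p = 0.811).

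Of 24 acute phase, complement and antimicrobial genes, 6 rose and 0 fell, with a median of 0.18. PI3 (elafin), an epithelial inhibitor of neutrophil elastase, read 10.79, 10.76 and 10.75 on the AMP-18 arrays and 10.27, 10.21 and 10.28 on the untreated arrays (log2 fold change 0.51, SE 0.06, adjusted p = 1.54e-05). LCN2, which binds the iron carriers of bacteria, read 12.90, 12.95 and 12.96 with AMP-18 and 12.55, 12.57 and 12.50 without (0.40, SE 0.06, adjusted p = 6.53e-05). LGALS3BP, a secreted galectin ligand, rose by 0.45 (adjusted p = 0.000472), the complement factor CFB by 0.44 (adjusted p = 0.00707) and serum amyloid SAA1 by 0.36 (adjusted p = 0.00111). In all 5, every AMP-18 array lay above every untreated one.

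MHC class I genes present peptides to T cells after loading in the ER, and 8 of the 13 genes of this list rose and 0 fell, with a median of 0.25. TAPBP (tapasin), the loading chaperone, read 9.94, 9.95 and 10.06 with AMP-18 and 9.53, 9.58 and 9.52 without (0.44, SE 0.08, adjusted p = 0.000454), with its other probes at -0.03 and 0.08. HLA-B rose by 0.41 (adjusted p = 0.000428), though near-identical class I genes could share its signal, and the peptide transporter TAP1 by 0.25 (adjusted p = 0.00165). The count was 5 without untreated replicate 3 or AMP-18 replicate 3. Of 48 interferon-stimulated genes, 2 rose, LY6E (0.32, adjusted p = 6.77e-05) and TAP1, and the median was 0.03. That is a smaller share than the 7.24% of all genes that rose. Among 35 cytokine and death receptors, 7 rose and 0 fell, with the TNF receptor TNFRSF1A at 9.85, 9.82 and 9.98 with AMP-18 and 9.57, 9.58 and 9.53 without (0.33, SE 0.06, adjusted p = 0.00109), the interleukin 4 receptor IL4R at 0.31 and the TRAIL receptor TNFRSF10B at 0.30.

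Keratins and cornified envelope proteins mark keratinocyte differentiation. For the counts of their lists, 7.24% of all genes rose and 3.85% fell. Of 17 keratins, 4 rose and 0 fell, with a median of 0.11: KRT13, of the suprabasal oral mucosa, read 12.58, 12.35 and 12.37 with AMP-18 and 12.03, 12.11 and 12.04 without (0.37, SE 0.05, adjusted p = 5.13e-05), and the others were KRT4, its partner, KRT16 and KRT5. KRT4 (0.47, adjusted p = 0.00426) did not pass without untreated replicate 1 (0.0504), and KRT5, of the basal layer (0.21, adjusted p = 0.0239), did not pass without AMP-18 replicate 2 or 3 or untreated replicate 1 or 3 (up to 0.0862). KRT16 (0.28, adjusted p = 0.022) reached 0.182 and did not pass without AMP-18 replicate 2 or 3 or untreated replicate 2. The keratin count was 2 without AMP-18 replicate 2 or 3 or untreated replicate 1. KRT14, the basal partner of type II keratins, did not pass (0.13, adjusted p = 0.144). Of 39 cornified envelope and epidermal protease genes, 4 rose and DMKN alone fell, with SPRR1B at 0.45 (adjusted p = 0.00783) and SPRR1A at 0.41 (adjusted p = 0.000114), which are close relatives and may share signal.

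Lipid genes were mixed, and for their counts, 7.24% of all genes rose and 3.85% fell. DHCR7, the last enzyme of cholesterol synthesis, read 8.82, 8.58 and 8.59 with AMP-18 and 8.18, 8.19 and 8.10 without (log2 fold change 0.50, SE 0.07, adjusted p = 8.27e-05), and 5 of the 21 cholesterol genes rose and 1 fell, IDI1 by 0.29 (adjusted p = 0.00716; 0.0566 without untreated replicate 2). Without untreated replicate 3, 1 of them rose, 2 without AMP-18 replicate 1 or untreated replicate 1 or 2, and 3 without AMP-18 replicate 2. In fatty acid oxidation, 2 of 25 rose, CPT1B and ACADVL (the second in none of the 6 fits with an array left out), and 3 fell, CPT2 (by 0.30, adjusted p = 0.00784; 0.0733 without untreated replicate 3), ECI2 (by 0.26, adjusted p = 0.0145; up to 0.0861 without AMP-18 replicate 3 or untreated replicate 3) and ECHS1 (by 0.17, adjusted p = 0.0388), which passed in 1 of those fits. Without untreated replicate 3, 0 genes of the oxidation list fell. Of 27 fatty acid synthesis and desaturation genes, 3 rose and 0 fell, with a median of 0.04. Among the 3 was SREBF1, the regulator of fatty acid synthesis (0.30, adjusted p = 0.00775).

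Genes of ribosomes and mitochondria lay on the other side of 0. Of 77 mitochondrial ribosomal proteins, 0 rose and 18 fell, with a median log2 fold change of -0.12, and 9 were above 0. MRPL19, of its large subunit, read 7.90, 7.73 and 7.54 on the AMP-18 arrays, against 8.13, 8.12 and 8.09 on the untreated arrays (-0.39, SE 0.08, adjusted p = 0.00141). MRPS28, of the small subunit, read 8.37, 8.44 and 8.54 with AMP-18 and 8.82, 8.82 and 8.86 without (-0.38, SE 0.07, adjusted p = 0.000616), and MRPL45 fell by 0.25 (adjusted p = 0.000847). Of 83 respiratory chain and ATP synthase genes, 1 rose, the copper protein gene COX19 (0.42, adjusted p = 0.00111), and 16 fell, with a median of -0.11. The complex I subunit NDUFA6 read 7.41, 7.45 and 7.42 with AMP-18 and 7.80, 7.71 and 7.74 without (-0.32, SE 0.07, adjusted p = 0.00197), and the complex IV subunit COX7B fell by 0.31 (adjusted p = 0.0015). Of 69 cytosolic ribosomal proteins, 0 rose and 12 fell, with a median of -0.09. RPL5, of the large subunit, read 11.30, 11.01 and 11.06 with AMP-18 and 11.54, 11.44 and 11.41 without (-0.34, SE 0.06, adjusted p = 0.000273), and RPL7 fell by 0.42 (adjusted p = 0.0028). Ribosomal protein genes have many pseudogenes, with which their probes may share signal. With an array left out, 9 to 15 mitochondrial ribosomal, 8 to 15 respiratory and 6 to 14 cytosolic ribosomal genes fell. The first count was 9, 10 and 12 without untreated replicate 3 and 2 and AMP-18 replicate 1, the second 8, 8 and 9 without untreated replicate 1, 2 and 3, and the third 6, 7 and 8 without untreated replicate 1, 2 and 3.

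The proteasome list had 0 of 41 genes rise and 4 fall, led by PSMA4, a subunit of its core (by 0.25, adjusted p = 0.000648), and 1 fell without untreated replicate 3. For this and the next lists, 7.24% of all genes rose and 3.85% fell. Of 32 ubiquitin-conjugating enzyme and ubiquitin genes, 1 rose, the activating enzyme UBA1 (0.25, adjusted p = 0.00418), and 5 fell, and 2 fell without untreated replicate 1 or 3. In RNA processing, 10 of 84 spliceosome and hnRNP genes fell and 1 rose, SRSF5 (0.21, adjusted p = 0.0028), and 8 of 41 nucleolar ribosome assembly genes fell and 0 rose, with NIP7 at -0.28 (adjusted p = 0.00746). The splicing count was 3 without any 1 of the untreated arrays, and 4 and 6 without AMP-18 replicate 2 and 1. The nucleolar count was 2 without untreated replicate 1, 3 without untreated replicate 2 or 3 or AMP-18 replicate 2, and 5 without AMP-18 replicate 3. Of 69 translation factors, 4 fell and 1 rose, and 1 fell without AMP-18 replicate 2 and 2 without untreated replicate 1 or 2. EIF3A, the scaffold of the initiation factor eIF3, read 9.29, 9.07 and 9.04 with AMP-18 and 9.44, 9.48 and 9.47 without (-0.33, SE 0.07, adjusted p = 0.00327), whereas EIF4G1, the scaffold of the cap-binding complex, rose by 0.33 (adjusted p = 0.00304). CBX3, a heterochromatin protein, fell by 0.36 (adjusted p = 0.000526).

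Of 50 DNA replication genes, 6 fell and 3 rose, MCM8, MCM3AP and ORC6. Without untreated replicate 1, 3 fell, without AMP-18 replicate 1 or untreated replicate 2 4 fell, and 1 rose without AMP-18 replicate 1 or untreated replicate 2 or 3. PCNA, the sliding clamp of the replication fork, read 10.50, 10.39 and 10.29 on the AMP-18 arrays and 10.68, 10.75 and 10.66 on the untreated arrays (log2 fold change -0.30, SE 0.05, adjusted p = 0.000505), and RFC5, of its loader, fell by 0.27 (adjusted p = 0.0013), and MCM8 rose by 0.29 (adjusted p = 0.00444). CDKN1A, the p21 inhibitor of cyclin-dependent kinases, read 10.78, 10.54 and 10.54 with AMP-18 and 10.25, 10.36 and 10.22 without (0.34, SE 0.07, adjusted p = 0.00211), and CDK4, which drives entry into the cell cycle, fell by 0.23 (adjusted p = 0.00465). Of 71 mitosis genes, 2 rose and 3 fell, where 7.24% and 3.85% of all genes did, with CENPT (0.42, adjusted p = 0.00655) and MKI67 (0.40, adjusted p = 0.00787; 0.0531 without untreated replicate 3) higher and CENPW lower (by 0.36, adjusted p = 0.00185). Without untreated replicate 3, 1 mitosis gene rose, and without untreated replicate 1, 1 fell. The 25 genes of MYC and its targets had 4 fall and 0 rise (2 without AMP-18 replicate 2 or untreated replicate 1 or 2), and MYC itself did not pass (-0.12, adjusted p = 0.296).

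For the counts of the next lists, 7.24% of all genes rose and 3.85% fell, so a few calls in lists this small do not set them apart. Of the signalling lists, genes repressed by MYC had 5 of 30 rise, among them ITGB4, CDKN1A and ERBB2, and 3 fall, with a median of 0.01. Without AMP-18 replicate 3 or untreated replicate 1 or 2, 3 rose, and without untreated replicate 1 or 2, 1 fell. Of 23 p53 targets, 3 rose, TP53INP1, CDKN1A and TNFRSF10B, and GADD45A fell (not without AMP-18 replicate 3; 2 fell without AMP-18 replicate 1). Of 31 genes of mTOR and p70S6K, 3 rose, EIF4G1, ULK1 and AKT1, and 0 fell, and 1 rose without AMP-18 replicate 1 or untreated replicate 1. Of 54 immediate-early and ERK feedback genes, 2 rose, CCN1 and IER3, and 1 fell, and the median was -0.00. Without AMP-18 replicate 1 or 2 or untreated replicate 2, 0 rose. PHLDA1, an early gene downstream of ERK, read 10.72, 10.59 and 10.60 with AMP-18 and 11.01, 10.90 and 10.98 without (-0.33, SE 0.05, adjusted p = 0.000121), with its other probe at 0.18, and FOS did not pass (0.17, adjusted p = 0.369). Of 35 BCL2 family and caspase genes, 0 rose and 2 fell, CASP6 and BCL2L12 (the second not without untreated replicate 2). None of 13 heat shock and stress genes, among them DDIT3, FOS and JUN, which can mark stress in handling, passed, with a median of 0.01, and 1 rose without AMP-18 replicate 2. GKN1, the gene of AMP-18 itself, read 7.15, 7.19 and 7.12 with AMP-18 and 7.11, 7.31 and 7.09 without (-0.02, adjusted p = 0.933), so its groups overlapped. The cholecystokinin B receptor gene CCKBR was not among the tested genes, and TP63 had no named probe. VIM (0.22, adjusted p = 0.0857) and CDKN2A (-0.06, adjusted p = 0.765) did not pass. The common reference genes ACTB and GAPDH differed by 0.05 (adjusted p = 0.544) and 0.08 (adjusted p = 0.343), and of 16 reference genes 3 rose, GUSB, EMC7 and TFRC, and HPRT1 fell. Without untreated replicate 1, 0 rose, and without AMP-18 replicate 1 or untreated replicate 2, 1 rose. HPRT1 did not pass without AMP-18 replicate 1 or 2 or untreated replicate 1 or 3.

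Whether these changes were particular to SCC-61 cells was tested against the effect of AMP-18 on HaCaT cells at 2 h, where 1 of the 18801 probes passed by limma (1408 at an unadjusted p under 0.05). These probes were kept by detection on the SCC-61 arrays at 2 h, and some were not detected in HaCaT cells. Probes detected in HaCaT cells alone were not tested. The difference, SCC-61 minus HaCaT, passed for 905 probes, 581 more positive and 324 more negative in SCC-61 cells. By gene, 421 were more positive (3.81%) and 142 more negative (1.29%). Among the 576 genes of lysosomal, secreted and surface proteins, 103 were more positive and 1 more negative, and the median log2 fold change was 0.18 in SCC-61 cells and -0.03 in HaCaT cells. Among the 182 ER and Golgi genes, 28 and 1 passed, with medians of 0.12 and -0.03, and among the 637 ribosomal, mitochondrial, proteasome and RNA processing genes 1 and 24 passed, with medians of -0.10 and 0.00. CDH3 changed by 0.54 in SCC-61 cells and by -0.07 in HaCaT cells (adjusted p of the difference 1.2e-05). APH1A changed by 0.51 and -0.09 (7.9e-05), KRT13 by 0.37 and -0.23 (3.9e-05), and PI3 by 0.51 and -0.13 (0.00013). IL6 changed by 0.53 in SCC-61 and 0.02 in HaCaT cells with an adjusted p of 0.022, and for TNFAIP6 (0.79 and 0.31) the difference did not pass (0.24). The count of 905 was 558 without HaCaT untreated replicate 2.

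Against the later time, the effect of AMP-18 on SCC-61 cells at 24 h minus that at 2 h passed for 418 probes. By gene, 233 were more negative at 24 h (2.11%) and 52 more positive (0.471%). At 24 h itself, 64 of the same 18801 probes passed, 33 higher and 31 lower. Of the 576 lysosomal, secreted and surface genes, 64 were more negative at 24 h and 0 more positive, and the median log2 fold change was -0.00 at 24 h, against 0.18 at 2 h. Of the ER and Golgi genes, 19 were more negative and 0 more positive, and of the ribosomal, mitochondrial, proteasome and RNA processing genes 0 were more negative and 6 more positive. LSR changed by -0.05 at 24 h and by 0.63 at 2 h (adjusted p of the difference 0.00031). BSG changed by -0.06 and 0.55 (0.0011), NEU1 by 0.07 and 0.48 (0.034), and EIF3A by 0.21 and -0.33 (0.0036). The secretoglobin SCGB1A1, an airway secretory protein, moved in opposite directions, by -0.41 at 24 h and 0.39 at 2 h (8.3e-05). Both differences contain the 6 SCC-61 arrays at 2 h, so neither is independent of the counts given first. The count of 418 was 187 to 504 with 1 array left out. It was 187 and 214 and 216 without AMP-18 24 h replicate 2, 1 and 3, 190 without untreated 24 h replicate 2, 188, 239 and 245 without untreated 2 h replicate 3, 2 and 1, and 260 without AMP-18 2 h replicate 2.

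**Figure D5:**
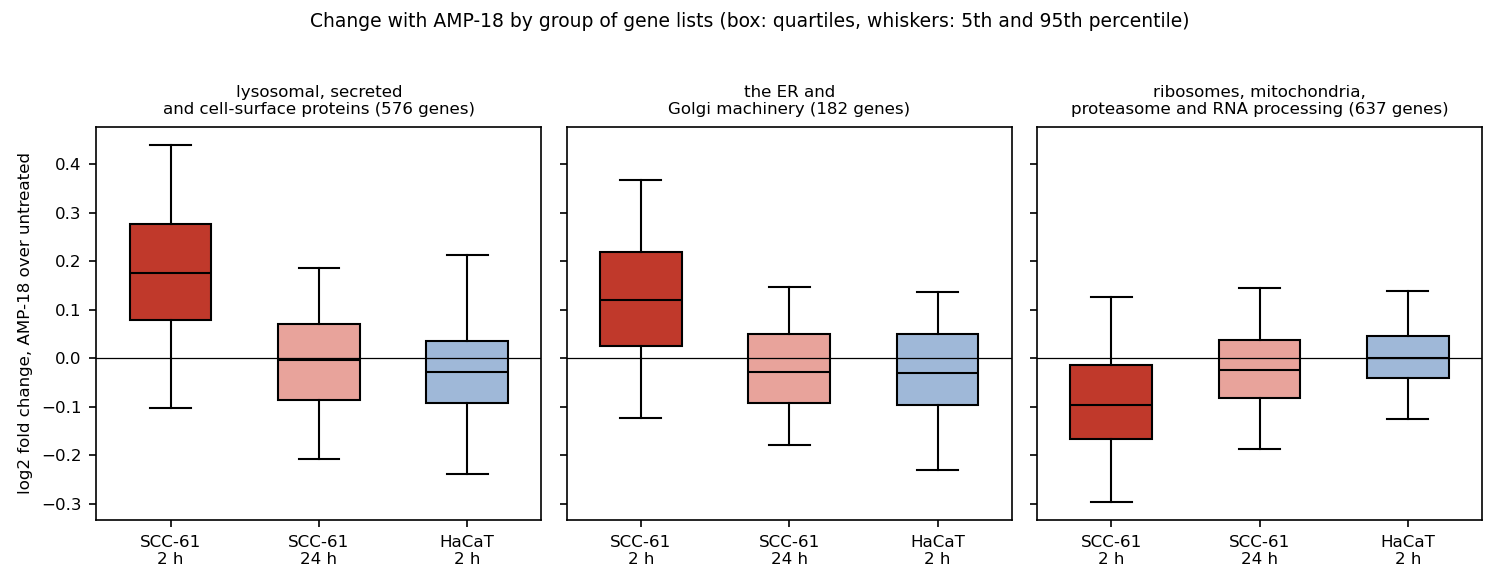
Log2 fold changes, AMP-18 over untreated, of the genes of 3 groups (lysosomal, secreted and surface; ER and Golgi machinery; ribosome, mitochondria, proteasome and RNA processing) in SCC-61 cells at 2 h, SCC-61 cells at 24 h and HaCaT cells at 2 h. Boxes span the quartiles with the median as a line and whiskers run from the 5th to the 95th percentile over genes. The medians at 2 h in SCC-61 cells are 0.18, 0.12 and -0.10, and those of the other 2 comparisons lie between -0.03 and 0.00.

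Genes that rose and fell also differed in a few features, given here as descriptions. These features were not separated from the lists the genes belonged to. The median untreated level was 8.50 on the log2 scale for genes that rose and 8.84 for those that fell, against 6.96 for all tested genes. Whether the level affected which genes were called was not tested. The median gene length was 24.2 kb for genes that rose and 17.5 kb for those that fell, against 27.6 kb for all tested genes, and the median GC content of the promoter was 67.3%, 63.0% and 65.0%. The ETS motif, CCGGAAGT on either strand, stood in 5.79% of the 639 promoters of genes that rose and 12.9% of the 349 of genes that fell, against 9.02% of those of the tested genes. It also stood in 15.3% of the 59 cytosolic and 14.5% of the 69 mitochondrial ribosomal promoters. The YY1 motif, AAGATGGC on either strand, stood in 29.0% of the 69 promoters of mitochondrial ribosomal genes, against 5.61% of those of the tested genes and 3.03% of all. It stood in 4.38% of the promoters of genes that rose and 9.74% of those of genes that fell. Other motifs were searched as well. For genes that rose and fell, the shares were 5.16% and 5.73% for NRF1 and 36.2% and 36.4% for the CCAAT box. They were 5.63% and 3.44% for AP-1, and 72.8% and 66.5% for the GC box.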

How the data were processed

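The deposited values were log2 intensities of Illumina HumanHT-12 v4 arrays, processed by the authors in GenomeStudio 2011.1 (submitters' notes). Their distributions matched across arrays, and the normalization method was not given in the sources used here. The deposited detection p-values set which probes were tested. With limma 3.58.1 under R 4.3.3, a linear model of the 8 groups was fitted to all 24 arrays with a mean-variance trend, and p-values were adjusted over 18801 probes. The 2 h differences from HaCaT cells and from 24 h were contrasts of that model. Genes named were the 15 highest and 15 lowest fold changes among genes that passed without overlap, up to 3 leading genes per direction of each list, fixed control genes, and the 8 largest differences per contrast; other list members named were chosen after their values were seen. The members and lists were chosen with earlier results of these data known. A gene undetected on all arrays of 1 group was given as a bound, against the higher of the lowest detected signal and its own. The array number limits precision. Promoters were from RefSeq. The fit was tested on simulated data. Alternatives covered filter, scaling, array weights, the replicate number and single arrays. The authors' own comparisons were not used.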

Additional observations from a re-analysis of the deposited data

Results flagged for a closer look

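The effect of AMP-18 at 2 h differed between SCC-61 and HaCaT cells for 905 probes (581 more positive and 324 more negative in SCC-61 cells), by a test of the difference itself. The 8 genes with the largest fitted differences were MUC4 (SCC-61 minus HaCaT 0.97, adjusted p = 0.00926), KRT4 (0.82, 0.00169), LOC730101 (0.80, 0.0324), TBX19 (0.79, 0.0274), SRPK2 (-0.77, 0.00675), ANAPC2 (0.77, 0.0162), RETSAT (0.76, 0.0179) and SLC39A2 (0.75, 0.00417), all from limma. MUC4 was detected on 0 HaCaT arrays at 2 h, and LOC730101 on 0 of the AMP-18 arrays and 2 of the untreated arrays of HaCaT cells, so neither fitted difference nor its place in this order measures a size; the change of MUC4 in SCC-61 cells was 0.48. KRT4 changed by 0.47 in SCC-61 cells and -0.35 in HaCaT cells, and SRPK2 by -0.50 and 0.28. The differences of TBX19, LOC730101 and RETSAT did not pass under 8, 7 and 3 of the alternatives.

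Between the times, the effect in SCC-61 cells at 24 h minus that at 2 h passed for 418 probes. The 8 genes with the largest fitted differences were NRP2 (-0.88, adjusted p = 0.00194), KRT4 (-0.87, 0.00177), SCGB1A1 (-0.80, 8.3e-05), COTL1 (0.75, 0.0475), HLA-DRB4 (-0.75, 0.0075), ZDHHC12 (-0.73, 0.000237), ROR1 (-0.70, 0.0263) and PGGT1B (0.70, 0.0177). NRP2, a coreceptor of semaphorins, changed by -0.51 at 24 h and 0.37 at 2 h. KRT4 was detected at 24 h on 0 AMP-18 arrays and 2 untreated arrays, so its fitted difference and place are no measure of size either. The differences of COTL1, ROR1 and PGGT1B did not pass under 14, 8 and 4 of the alternatives, and HLA-DRB4 has near-identical copies.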

How the results depend on the processing

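At 2 h 1964 probes were called. The count was 4080 with array weights (1925 of the 1964 among them), 1139 when only the arrays compared were fitted (1057 of the 1964) and 1165 to 1764 with 1 array left out. A two-tailed t-test gave 22 after Benjamini-Hochberg and 3788 at an unadjusted p of 0.05 or less. The study's methods list that test among their general statistics, and for the arrays describe a ranking of genes by Fisher's ratio. With the replicate block the count was 1411. Whether equal replicate numbers mark samples handled together is not stated. Same-numbered SCC-61 arrays at 2 h had residual correlations of 0.03, 0.05 and 0.06, which with so few arrays cannot settle it. The 905 differences from HaCaT cells became 557 without a filter, 546 with the replicate block, 592 without the variance trend, 2358 with array weights and 558 to 1185 with 1 array left out. The 418 differences from 24 h became 238, 180, 193, 1429 and 187 to 504 in the same order. The share of calls at 2 h that were higher was 56.9% as deposited, 64.5% under cyclic loess, 65% with only the arrays compared, 50.4% with array weights and 53.8% without AMP-18 replicate 1. No called gene changed direction under the alternatives run, but GKN1 (-0.06 to 0.05) and CDKN2A (-0.15 to 0.04), which did not pass, changed sign. Of 74 lists, 11 had a median of the other sign in the settings run on all lists. These were 4 under cyclic loess, 0 under median centring, 2 with the mean of all probes (V-ATPase -0.02, against 0.04, and hypoxia and glycolysis -0.00, against 0.05) and 6 without AMP-18 replicate 1. In those settings, 254 list medians moved by less than the spread of the AMP-18 arrays and 42 by more. Lists outside the 11 crossed 0 when another of the 6 arrays was left out, namely tubulins (-0.03 to 0.01, against -0.02) and leukocyte markers (-0.05 to 0.02, against -0.02). Of the values of single genes, 3929 kept their side of the threshold, 611 no longer passed and 4 newly passed. Probes undetected in a group carry only bounds.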
